A study of Mus musculus with 20 samples.

Results

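The 8 genes Hadha, Hadhb, Echs1, Hadh, Acaa2, Eci1, Decr1 and Hsd17b10 encode the enzymes that follow the first dehydrogenation in mitochondrial fatty acid beta-oxidation. They were taken by symbol from the 25052 genes listed, each symbol matched 1 gene identifier, and all 8 were among the 12775 genes tested. RNA came from frozen left ventricle of 20 male mice in 4 groups of 5, and the libraries carry the numbers RT1 to RT20. All 4 groups were homozygous for floxed Acacb, the gene of acetyl-CoA carboxylase ACC2, and all received tamoxifen at 20 mg/kg for 5 days from 8 weeks of age. Mice labelled iKO also carried MerCreMer, a Cre recombinase that tamoxifen activates, and mice labelled WT were littermates without it, so WT here means floxed alleles without Cre. Feeding began 4 weeks after the last injection and lasted 16 weeks, on chow or on the high-fat diet D12492 of Research Diets (HFD). The labels do not name the promoter that drives MerCreMer. No samples with Cre and without floxed alleles are among the 20, so effects of ACC2 loss and of the Cre transgene cannot be told apart.

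Each round of beta-oxidation shortens a fatty acyl-CoA by an acetyl-CoA. An acyl-CoA dehydrogenase first introduces a double bond, a hydratase adds water across it, a hydroxyacyl-CoA dehydrogenase oxidises the hydroxyl group with NAD+, and a thiolase splits off acetyl-CoA. For long chains the last 3 of these activities sit in the mitochondrial trifunctional protein at the inner membrane, built of alpha subunits (Hadha, hydratase and dehydrogenase) and beta subunits (Hadhb, thiolase). Shorter chains pass to the soluble matrix enzymes Echs1, Hadh and Acaa2. Unsaturated fatty acids need auxiliary enzymes that move or remove double bonds, among them the enoyl-CoA isomerase Eci1 and the dienoyl-CoA reductase Decr1. Hsd17b10 is a hydroxyacyl-CoA dehydrogenase that also acts in isoleucine breakdown and, as a subunit of mitochondrial RNase P, in the processing of mitochondrial transfer RNAs. The heart draws most of its energy from fatty acids, and malonyl-CoA, the product of ACC2, restrains their entry into mitochondria.

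The values are FPKM, in which reads are scaled by transcript length and library size, so levels of different genes are compared per length. Depth was read from the size of 1-read steps in short, low genes and came to 12.6 to 31.8 M reads on genes per library, with a median of 22.5 M. Acacb stood between 34.9 and 41.9 FPKM in the 10 WT libraries and between 8.37 and 11.9 FPKM in the 10 iKO libraries, with no overlap. RT1 to RT10 are chow libraries and RT11 to RT20 are HFD libraries, and any effect of this order and the diet cannot be told apart. Cardiomyocyte markers identified the tissue in every library, with a summed level of 9 genes between 34418 and 47698 FPKM. Summed markers of atrial muscle reached 691 FPKM in RT1 and 358 FPKM in RT4, against 21.4 to 186 FPKM in the other libraries. In bulk tissue, fewer cells of a type and less RNA per cell cannot be told apart.

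All 8 genes were abundant in WT ventricle on chow, where they ranked between 43 (Hadhb) and 502 (Hsd17b10) of the 12775 tested genes by mean FPKM. Hadhb led with 1286 ± 29.0 FPKM (SD, n = 5). Below it the order by mean FPKM was Acaa2 (538 ± 21.4), Hadha (463 ± 13.4), Hadh (335 ± 6.08), Echs1 (217 ± 7.57), Eci1 (173 ± 3.84), Decr1 (161 ± 2.63) and Hsd17b10 (106 ± 3.78). In this group no pair of neighbours in the order overlapped, so each gap separated all 5 libraries of one gene from all 5 of the next. In chow-fed iKO the ranges of Acaa2 and Hadha overlapped, as did those of Decr1 and Hsd17b10. On HFD Decr1 stood above Echs1 and Eci1 by group mean in both genotypes, and the neighbours Decr1 and Echs1 overlapped in range there, as did Echs1 and Eci1, and in HFD-fed iKO also Acaa2 and Hadha. Hadhb has a near-identical copy, Gm13910 (99.79% identity over 1428 nucleotides), listed at 0.3 FPKM at most. A further copy, Gm9108 (97.6% over 1426 nucleotides), is not among the genes listed, so its level is not known. Echs1 shares 678 nucleotides with Paox on the opposite strand, which did not exceed 1.76 FPKM.

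Hadha and Hadhb lie head to head on chromosome 5 (GRCm38), Hadha from 30118304 to 30155162 on the minus strand and Hadhb from 30155248 to 30184593 on the plus strand, with 85 bases between the GENCODE gene models. In RefSeq (GRCm38.p6) the start of Hadha is at 30154980 and that of Hadhb at 30155253, with 272 bases between them, so that 1 stretch of DNA lies upstream of both subunits of the trifunctional protein. Promoter windows, 250 bases before to 50 after the RefSeq start, were examined for 6 of the 8 genes, and those of Hadha and Hadhb share 228 bases. Shown first is the Hadhb window, whose 250 bases before the start lie between the starts of both genes. The RefSeq start of Hadha, on the opposite strand at position -273 counted from the start of Hadhb, lies just outside it. Next is Hadh, a soluble dehydrogenase that fell with Hadha and Hadhb in iKO on chow, and then Echs1 and Hsd17b10, which did not pass the test described below. All 4 are printed 5′ to 3′ in the direction of transcription of the named gene. Capitals mark every GC box (GGGCGG, read on both strands) and every nuclear receptor half-site (AGGTCA, both strands).
Hadhb, chr5:30155003-30155302, plus strand: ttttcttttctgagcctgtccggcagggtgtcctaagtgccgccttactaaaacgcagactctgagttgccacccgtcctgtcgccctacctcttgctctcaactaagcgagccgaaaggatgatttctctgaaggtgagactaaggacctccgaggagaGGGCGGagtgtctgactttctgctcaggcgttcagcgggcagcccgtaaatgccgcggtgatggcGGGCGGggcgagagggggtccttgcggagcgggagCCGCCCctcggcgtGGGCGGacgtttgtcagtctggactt
Hadh, chr3:131272052-131272351, minus strand: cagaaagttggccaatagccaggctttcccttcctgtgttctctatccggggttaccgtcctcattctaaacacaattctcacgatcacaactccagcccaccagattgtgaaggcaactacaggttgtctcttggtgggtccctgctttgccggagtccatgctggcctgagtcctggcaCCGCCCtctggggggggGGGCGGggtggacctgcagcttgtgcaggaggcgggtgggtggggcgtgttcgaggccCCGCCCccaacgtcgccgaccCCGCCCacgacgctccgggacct
Echs1, chr7:140116372-140116671, minus strand: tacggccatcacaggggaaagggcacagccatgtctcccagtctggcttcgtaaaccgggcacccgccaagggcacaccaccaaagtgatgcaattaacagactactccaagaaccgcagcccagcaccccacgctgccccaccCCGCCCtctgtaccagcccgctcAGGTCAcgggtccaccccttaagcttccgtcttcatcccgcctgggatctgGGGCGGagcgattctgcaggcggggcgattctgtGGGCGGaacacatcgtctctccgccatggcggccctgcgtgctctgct
Hsd17b10, chrX:152001646-152001945, plus strand: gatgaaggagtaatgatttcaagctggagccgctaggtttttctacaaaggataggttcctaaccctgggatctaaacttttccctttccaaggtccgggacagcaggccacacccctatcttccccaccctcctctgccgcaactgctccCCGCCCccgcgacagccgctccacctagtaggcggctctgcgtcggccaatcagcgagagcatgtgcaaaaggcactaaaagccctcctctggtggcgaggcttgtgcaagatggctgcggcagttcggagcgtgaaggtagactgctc

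In GRCm38 the other 6 gene models lie on other chromosomes. Hadh lies on chromosome 3 (131233419 to 131272101, minus strand), Echs1 on chromosome 7 (140105710 to 140116476, minus) and Acaa2 on chromosome 18 (74779197 to 74806208, plus). Eci1 lies on chromosome 17 (24426641 to 24439348, plus), Decr1 on chromosome 4 (15917240 to 15945507, minus) and Hsd17b10 on the X chromosome (152001845 to 152004442, plus).

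The 6 windows examined do not include those of Acaa2 and Decr1. No window was at hand for Decr1, and Acaa2 was left out of the search. By point estimate these genes had the most pronounced decreases in iKO on chow, and the matches given here do not cover them. All 6 windows held at least 1 GC box, against 35.7% of the 32851 mouse promoter windows searched. Their GC content lay between 57.7% and 63.7%, against a median of 52.7% for all windows. Hadhb and Hadh held 4 GC boxes each, Echs1 3, and Hadha, Eci1 and Hsd17b10 1 each, with any box in the shared stretch counted for both Hadha and Hadhb. The half-site AGGTCA, the core of elements bound by PPAR and ERR receptors, occurred once, at position -83 of Echs1, and in 16.3% of all windows. Longer forms that can overlap it were also searched on both strands, namely TNAAGGTCA (1.28% of all windows), an extended half-site of ERR receptors, and a direct repeat of AGGNCA with 1 base between the copies (0.381%), the element of PPAR with RXR. Neither was among the letters of the 6 windows, nor were CCGGAAG (an ETS motif, 8.86%) and the NRF1 motif of GCGCA and GCGC with 1 base between them (4.60%). These matches describe letters in 300 bases and say nothing about binding.

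Chow-fed iKO and WT mice were compared to see how these steps respond to loss of ACC2 without a change of diet. Of the 8 genes 6 fell in iKO and none rose, by limma with adjustment over all tested genes, while 0.720% of all tested genes fell and 0.344% rose. The decreases were those of both trifunctional subunits, Hadh, Acaa2, Eci1 and Decr1, with the thiolase Acaa2 and the reductase Decr1 at 0.69 of their WT level (95% intervals 0.64 to 0.74 and 0.65 to 0.74, on the FPKM + 1 scale). Echs1 and Hsd17b10 did not pass the test. For the same 6 genes every iKO value lay below every WT value, which held for 1.11% of all tested genes. The median log2 fold change of the 8 was -0.29, and that of all tested genes 0.05. Over all genes 44 rose and 92 fell, and under median-of-ratios scaling 18 rose and 130 fell.

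**Figure D1:**
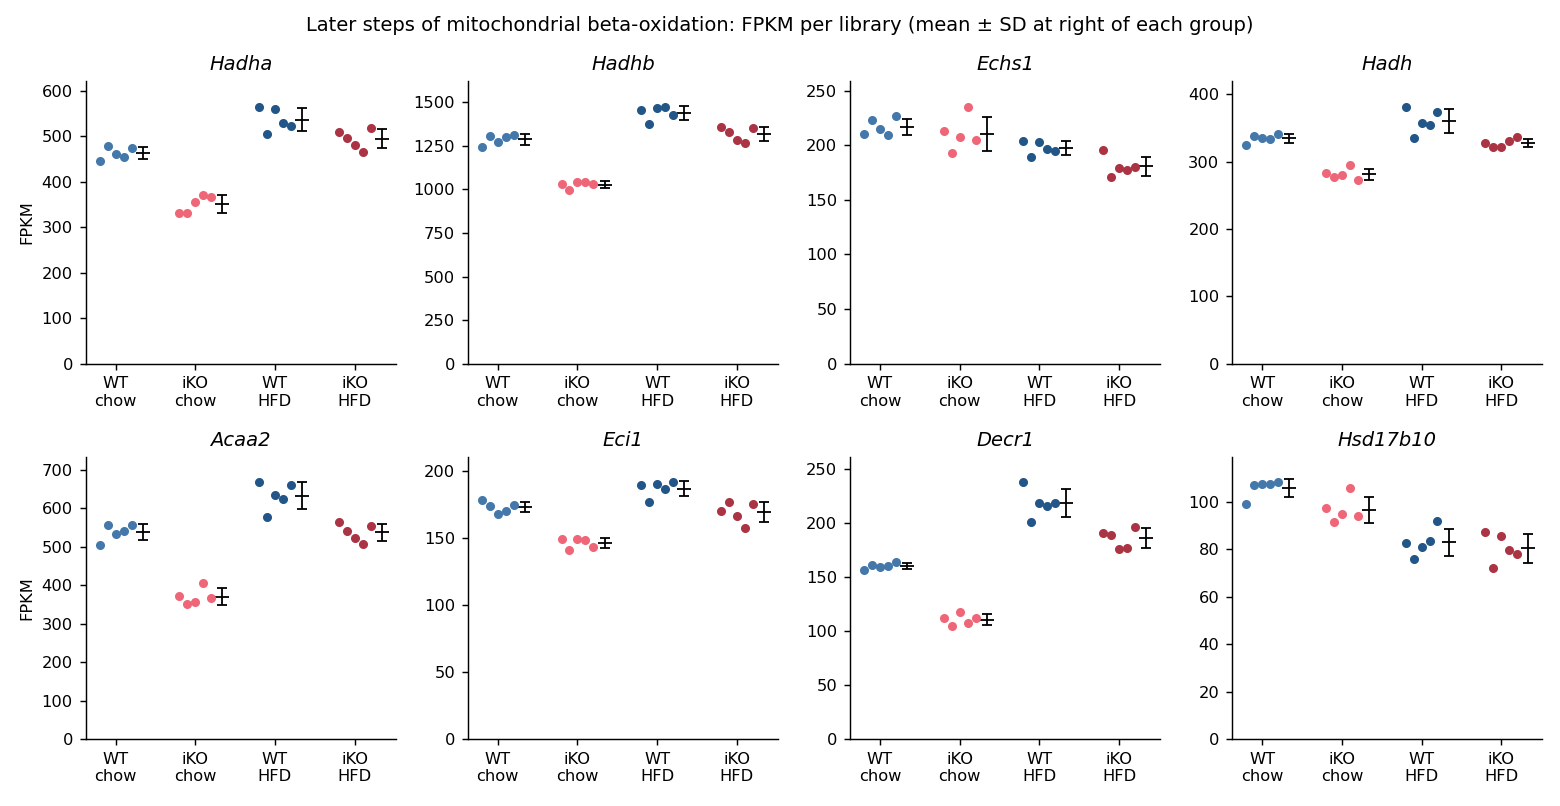
FPKM of each gene (vertical axis, from 0, scaled per panel) in each library (points), by genotype and diet (horizontal axis), with the mean and SD of the 5 libraries beside each group. Acaa2 has a mean of 538 FPKM both in chow-fed WT and in HFD-fed iKO, with chow-fed iKO lower (371) and HFD-fed WT higher (633), and Hsd17b10 is lower in both HFD groups.

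In the trifunctional protein, Hadha (alpha subunit) had 446, 478, 459.8, 455 and 474 FPKM in the 5 WT libraries and 331, 331, 355, 371 and 366 FPKM in the 5 iKO libraries on chow. The gap between the lowest WT and the highest iKO value was wider than the range within either group. Hadha fell by 0.40 on the log2 scale (SE 0.043, limma adjusted p = 4.61e-06). Hadhb (beta subunit) had 1242, 1305, 1272, 1299.7 and 1312 FPKM in WT and 1033, 998, 1039.7, 1039.5 and 1029 FPKM in iKO. The groups again stood apart, and 4 of the 5 iKO values lay close together, with RT4 below them. Hadhb fell by 0.32 (log2, SE 0.032, limma adjusted p = 1.32e-06).

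Of the soluble enzymes, the hydratase Echs1 had 211, 223, 214, 209.5 and 227 FPKM in WT and 213, 193, 207, 235 and 204 FPKM in iKO on chow. The groups overlapped, with 3 iKO values below and 1, that of RT7, above the whole WT range. Its log2 fold change was -0.045 (95% interval -0.14 to 0.052, limma adjusted p = 0.705). The dehydrogenase Hadh had 325, 339, 335, 333 and 341 FPKM in WT and 283, 277, 279.8, 295 and 273 FPKM in iKO, with all iKO values lower. Hadh fell by 0.25 (log2, SE 0.036, limma adjusted p = 0.000313). The thiolase Acaa2 had 504, 557, 533, 541 and 556 FPKM in WT and 372, 352, 356, 407 and 366 FPKM in iKO, where RT7 was the highest and still below every WT library. Its decrease of 0.54 (log2, limma adjusted p = 2.27e-07) was, with that of Decr1, the most pronounced by point estimate among the 8.

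Of the auxiliary enzymes, the isomerase Eci1 had 178, 174, 168, 171 and 175 FPKM in WT and 149.8, 141, 149, 149 and 144 FPKM in iKO on chow. No values overlapped, and Eci1 fell by 0.24 (log2, SE 0.037, limma adjusted p = 0.000677). The reductase Decr1 had 157, 162, 160.0, 161 and 164 FPKM in WT, which lay close together, and 112, 105, 118, 108 and 112 FPKM in iKO. The highest iKO value, that of RT6, lay far below the lowest WT value, and Decr1 fell by 0.53 (log2, SE 0.044, limma adjusted p = 1.38e-07). Hsd17b10 had 99.2, 107, 107, 108 and 108 FPKM in WT and 97.3, 91.4, 94.8, 106 and 94.0 FPKM in iKO. Its values overlapped through RT7 among the iKO and RT1 among the WT libraries, and its log2 fold change of -0.13 (95% interval -0.25 to -0.018) did not pass the test (limma adjusted p = 0.291).

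Beside these decreases, the 10 fibroblast markers all had log2 fold changes above 0 in iKO on chow (median 0.39, none called by limma, 3 with an unadjusted p under 0.05), with a summed level of 383 to 472 FPKM in WT and 429.5 to 859 FPKM in iKO. The 8 macrophage markers were likewise all above 0 (median 0.24, none called, 1 with an unadjusted p under 0.05, 185 to 211 FPKM in WT and 182 to 289 FPKM in iKO). All 5 erythroid markers were above 0 too (median 0.37, none called, 2 with an unadjusted p under 0.05), with summed levels of 1605 to 2515 FPKM in WT and 2062 to 3061 FPKM in iKO. None of these markers was at 0, and their part in the decreases was not tested. The 9 cardiomyocyte markers had a median of -0.0029, with none called by limma and 0 with an unadjusted p under 0.05. Without RT1 and RT4 together, or without RT4 and RT7 together, 6 of the 8 genes still fell.

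Between genotypes on HFD, all 8 genes had log2 fold changes below 0 in iKO, and 2 of them, Acaa2 and Decr1, fell, while 0.0705% of all tested genes fell and 0.102% rose. The other 6 did not pass the test, 5 of them with an unadjusted p under 0.05. How many of all tested genes had an unadjusted p under 0.05 was not counted. The median log2 fold change of the 8 was -0.13, against 0.063 for all tested genes. Over all genes 13 rose and 9 fell, and under median-of-ratios scaling 8 rose and 17 fell. Every iKO value lay below every WT value for Hadhb, Acaa2, Eci1 and Decr1, which held for 0.446% of all tested genes.

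**Figure D2:**
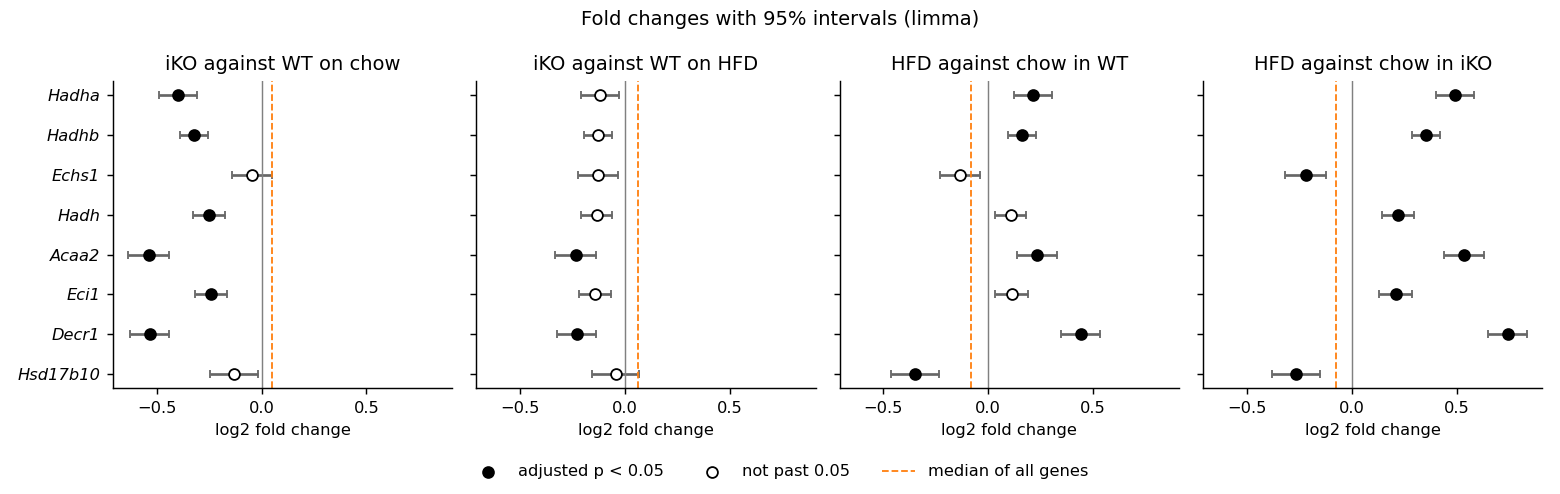
Log2 fold changes (horizontal axis) of the 8 genes (vertical axis) in the 4 pairwise comparisons, with 95% intervals, filled where the adjusted p is under 0.05, and the median of all tested genes as a dashed line. 6 genes are filled to the left of 0 for iKO against WT on chow and 6 to the right of 0 for HFD against chow in iKO, where Echs1 and Hsd17b10 lie to the left.

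On HFD Acaa2 had 667, 578, 634, 625 and 661 FPKM in WT and 563, 541, 522, 507 and 554 FPKM in iKO. The lowest WT library (RT14) stood above the highest iKO library (RT11), and Acaa2 fell by 0.23 (log2, SE 0.047, limma adjusted p = 0.0343). Decr1 had 238, 201, 219, 217 and 219 FPKM in WT and 191, 189.7, 176, 178 and 197 FPKM in iKO. The lowest WT value, that of RT14, lay just above the highest iKO value, that of RT20, and Decr1 fell by 0.23 (log2, SE 0.044, limma adjusted p = 0.0331). Both calls were lost when any single one of RT8, RT12, RT13, RT15, RT16, RT17, RT18 and RT19 was left out, and that of Acaa2 also without RT10 or RT20 (highest adjusted p 0.149 for Acaa2 and 0.139 for Decr1, by limma). Both were lost as well when only the HFD groups entered the fit, with adjusted p of 0.125 and 0.139 by limma.

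The remaining 6 missed the threshold between genotypes on HFD. Hadha had 565, 506, 560.5, 528 and 523 FPKM in WT and 509, 496, 482, 466 and 519 FPKM in iKO, with RT11 and RT20 inside the WT range. Hadhb had 1458, 1376, 1464, 1474 and 1428 FPKM in WT and 1355, 1329, 1282, 1266 and 1349.7 FPKM in iKO, with no overlap. The log2 fold changes of the trifunctional subunits were -0.12 (95% interval -0.21 to -0.028) for Hadha and -0.13 (-0.20 to -0.063) for Hadhb. Hadh had 382, 335, 358, 355 and 373 FPKM in WT and 328, 322, 322, 331 and 337 FPKM in iKO, where RT20 exceeded the lowest WT library RT14. Eci1 had 189, 177, 190.3, 187 and 192 FPKM in WT and 171, 177, 167, 158 and 175 FPKM in iKO, where RT14 of WT lay just above RT13 of iKO. Their log2 fold changes were -0.13 (limma adjusted p = 0.129) and -0.14 (limma adjusted p = 0.117).

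Echs1 on HFD had 204, 189, 203, 197 and 194 FPKM in WT and 195, 171, 179, 178 and 180.2 FPKM in iKO. RT11 alone of the iKO libraries reached the WT range, and the log2 fold change was -0.13 (95% interval -0.23 to -0.031, limma adjusted p = 0.236). Hsd17b10 had 82.5, 76.1, 80.9, 83.5 and 91.9 FPKM in WT and 87.2, 71.9, 85.4, 79.6 and 78.1 FPKM in iKO, overlapping over most of their range. Its log2 fold change was -0.044 (95% interval -0.16 to 0.069). On HFD 9 of the 10 fibroblast markers were above 0 (median 0.28, none called by limma, 3 with an unadjusted p under 0.05), with a summed level of 379.6 to 426 FPKM in WT and 366 to 718 FPKM in iKO. All 8 macrophage markers were above 0 (median 0.16, none called by limma, 1 with an unadjusted p under 0.05), with 141 to 183 FPKM in WT and 138 to 227 FPKM in iKO. The part of these markers in the result was not tested.

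The comparison of HFD with chow in WT asks how the steps respond to the change of diet where ACC2 is present. Of the 8 genes 4 rose on HFD, namely Hadha, Hadhb, Acaa2 and Decr1, while 0.767% of all tested genes rose. Hsd17b10 fell, as did 7.27% of all tested genes. Decr1 rose by 0.44 (log2, SE 0.044, limma adjusted p = 3.84e-06), and its 5 HFD values began at 201 FPKM, above the highest chow value of 164 FPKM. Acaa2 rose by 0.23 (log2, SE 0.047, limma adjusted p = 0.00446), Hadha by 0.21 (limma adjusted p = 0.00481) and Hadhb by 0.16 (limma adjusted p = 0.00383). For these 4 genes every HFD value lay above every chow value, which held for 0.783% of all tested genes.

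Hadh and Eci1 did not pass the test between diets in WT (log2 fold changes 0.11 and 0.11, limma adjusted p = 0.0697 and 0.0648), with 4 of 5 HFD values above the chow range for each. RT14 was the lowest HFD library for both, and without it both were called, with adjusted p of 0.0295 for Hadh and 0.0455 for Eci1 by limma. Hsd17b10 fell by 0.35 (log2, SE 0.055, limma adjusted p = 0.000559), and all 5 HFD values, the highest at 91.9 FPKM in RT19, lay below the lowest chow value of 99.2 FPKM in RT1. Echs1 had a log2 fold change of -0.13 (95% interval -0.23 to -0.038, limma adjusted p = 0.0743), with all HFD values below all chow values, and without RT7, a library outside this comparison that enters the estimate of the spread, it was called with an adjusted p of 0.0387 by limma. Over its alternatives the log2 fold change of Echs1 ran from -0.15 to -0.029 and the adjusted p from 0.024 to 0.882, the weakest under median-of-ratios scaling. The 5 HFD values lay wholly below the chow values for 9.99% of all tested genes. All tested genes had a median of -0.084 here, and the 8 genes 0.14. Under median-of-ratios scaling, which sets that median near 0, the fold change of Hsd17b10 was -0.25 (adjusted p = 0.0598 by limma), and Hadh (0.21) and Eci1 (0.22) were called.

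In iKO all 8 genes changed with the diet. Of these, 6 rose on HFD (Hadha, Hadhb, Hadh, Acaa2, Eci1 and Decr1) and Echs1 and Hsd17b10 fell, while 1.65% of all tested genes rose and 8.36% fell. Decr1 rose by 0.74 (log2, SE 0.044, limma adjusted p = 3.11e-10), a ratio of 1.67. Acaa2 rose by 0.54 (log2, SE 0.047, ratio 1.45), Hadha by 0.49 (SE 0.043, ratio 1.41) and Hadhb by 0.36 (SE 0.032, ratio 1.28). The increases of Hadh (0.22, limma adjusted p = 0.000451) and Eci1 (0.21, limma adjusted p = 0.000854) were smaller by point estimate. For all 6 the lowest HFD value exceeded the highest chow value, which held for 1.39% of all tested genes.

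Echs1 fell by 0.22 on HFD in iKO (SE 0.047, limma adjusted p = 0.00499), with 4 of 5 HFD values below the chow range, RT11 being the exception. Hsd17b10 fell by 0.26 (log2, SE 0.055, limma adjusted p = 0.00387), with all 5 HFD values below all chow values, which held for 6.41% of all tested genes. The median was 0.29 for the 8 genes and -0.072 for all tested genes. Under median-of-ratios scaling the calls of Echs1 (-0.13, adjusted p = 0.264 by limma) and Hsd17b10 (-0.17, adjusted p = 0.177) were lost, while all 6 increases were called. Over all genes the split in iKO was 211 higher and 1068 lower, and under this scaling 328 and 232. In WT it was 98 and 929, and 178 and 149 under this scaling. Of the 9 cardiomyocyte markers 6 fell with HFD in each genotype, while 7.27% of all tested genes fell in WT and 8.36% in iKO. Their calls were not counted under median-of-ratios scaling. Summed levels of these markers were 43115 to 44518 FPKM in chow-fed and 34418 to 42782 FPKM in HFD-fed WT. In iKO they were 42762 to 47698 and 36237 to 38362 FPKM. The part of these markers in the changes of the 8 genes was not tested.

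The difference between the genotype effects on the 2 diets, which equals the difference between the diet effects in the 2 genotypes, was tested as an interaction. By limma none of the 8 genes passed it after adjustment, while 0.0313% of all tested genes passed. Before adjustment 5 of the 8 had a p under 0.05, and the share of all tested genes at that level was not counted. The interaction estimates were 0.30 for Decr1 (95% interval 0.17 to 0.43, limma adjusted p = 0.174), 0.30 for Acaa2 (0.17 to 0.44, limma adjusted p = 0.203) and 0.28 for Hadha (0.15 to 0.41, limma adjusted p = 0.203). Those of Hadhb (0.19), Hadh (0.11), Eci1 (0.098) and Hsd17b10 (0.087) were also above 0, and that of Echs1 was -0.083. A smaller genotype effect on HFD is therefore not established for any of the 8 by this test. Without RT7 Acaa2 passed it, with an estimate of 0.34 and an adjusted p of 0.0462 by limma.

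The 4 pairwise comparisons share groups, so their estimates are not independent. HFD-fed iKO and chow-fed WT, which no test compared, are set side by side by their values. Acaa2 stood at 538 ± 22.8 FPKM in the former and 538 ± 21.4 in the latter (SD, n = 5), Hadh at 328 ± 6.47 and 335 ± 6.08, and Eci1 at 169.6 ± 7.65 and 173 ± 3.84. Hadha stood at 494 ± 21.2 and 463 ± 13.4 FPKM, and Hadhb at 1316 ± 40.4 and 1286 ± 29.0 FPKM. For these 5 genes the libraries of the groups overlapped. Decr1 was higher in HFD-fed iKO (186 ± 9.11, against 161 ± 2.63 FPKM), with no overlap of the libraries. Echs1 (181 ± 8.93, against 217 ± 7.57) and Hsd17b10 (80.4 ± 6.13, against 106 ± 3.78) were lower, likewise with no overlap. The share of all tested genes with no overlap between these groups was not counted. Between diets, HFD values lay wholly below chow values for 9.99% of tested genes in WT and 6.41% in iKO. They lay wholly above for 0.783% and 1.39%.

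The ratio of the trifunctional subunits varied less than their levels. Hadhb stood at 2.78 ± 0.046 times the FPKM of Hadha in chow-fed WT (SD, n = 5), 2.93 ± 0.13 in chow-fed iKO, 2.69 ± 0.087 in HFD-fed WT and 2.66 ± 0.042 in HFD-fed iKO. Over all 20 libraries the ratio lay between 2.58 and 3.12, while Hadha itself ranged from 331 to 565 FPKM. On chow the ratios of iKO (2.81 to 3.12) overlapped those of WT (2.73 to 2.86). Between diets, the chow ratios of iKO lay wholly above its HFD ratios (2.60 to 2.72). In WT the chow and HFD ratios (2.58 to 2.79 on HFD) overlapped. A narrow range was not particular to the 2 subunits. Acaa2, which is not one of them, stood at 0.9986 to 1.263 times Hadha over all 20 libraries, with group means between 1.057 and 1.180. The ratio of the next enzymes of the shorter-chain route, Hadh over Echs1, differed more between groups. Hadh stood at 1.54 ± 0.035 times Echs1 in chow-fed WT, 1.34 ± 0.065 in chow-fed iKO, 1.83 ± 0.069 in HFD-fed WT and 1.82 ± 0.085 in HFD-fed iKO, and the 2 chow groups overlapped neither each other nor the HFD groups.

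**Figure D3:**
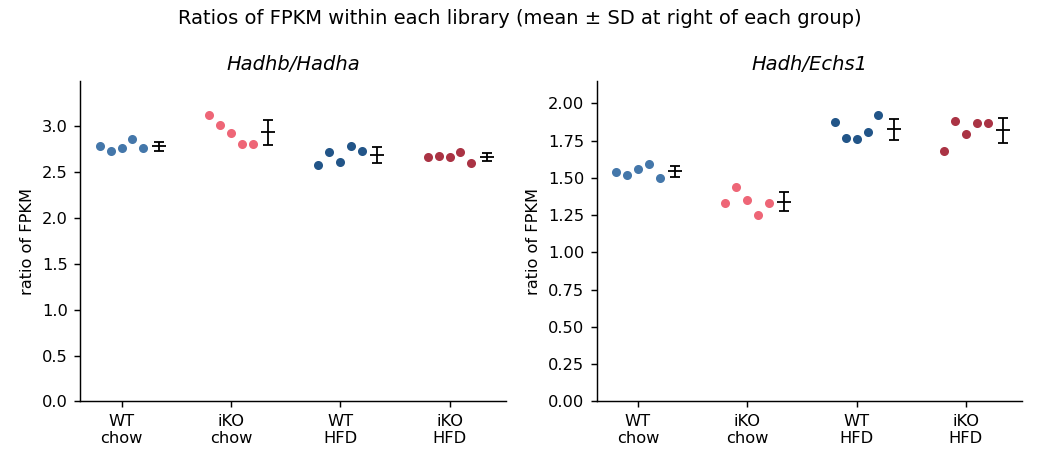
Ratio of FPKM of 2 genes within each library (vertical axis, from 0) by genotype and diet (horizontal axis), with the mean and SD of each group, for Hadhb over Hadha (left) and Hadh over Echs1 (right). The left ratio stays between 2.58 and 3.12, and the right ratio has separate ranges for chow-fed WT, chow-fed iKO and the HFD groups.

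Across the 20 libraries the 8 genes fell into a set of 6 and a pair. Over the log2 values, the 15 pairs among Hadha, Hadhb, Hadh, Acaa2, Eci1 and Decr1 all had Pearson's r above 0.9, up to 0.99 for Hadhb with Acaa2. Echs1 and Hsd17b10 had r = 0.86 with each other and r between -0.54 and -0.13 with the 6 others. These values rest on the group differences described above and on shared library scaling, and are given as a description. Once each group's mean was removed, all 28 pairs had r above 0, between 0.077 (Eci1 with Hsd17b10) and 0.81 (Hadh with Acaa2), with a median of 0.57. Shared library scaling enters these values too, and the share of other gene pairs above 0 was not counted. Within groups Echs1 had r = 0.74 with Acaa2, although the 2 genes moved differently between groups.

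**Figure D4:**
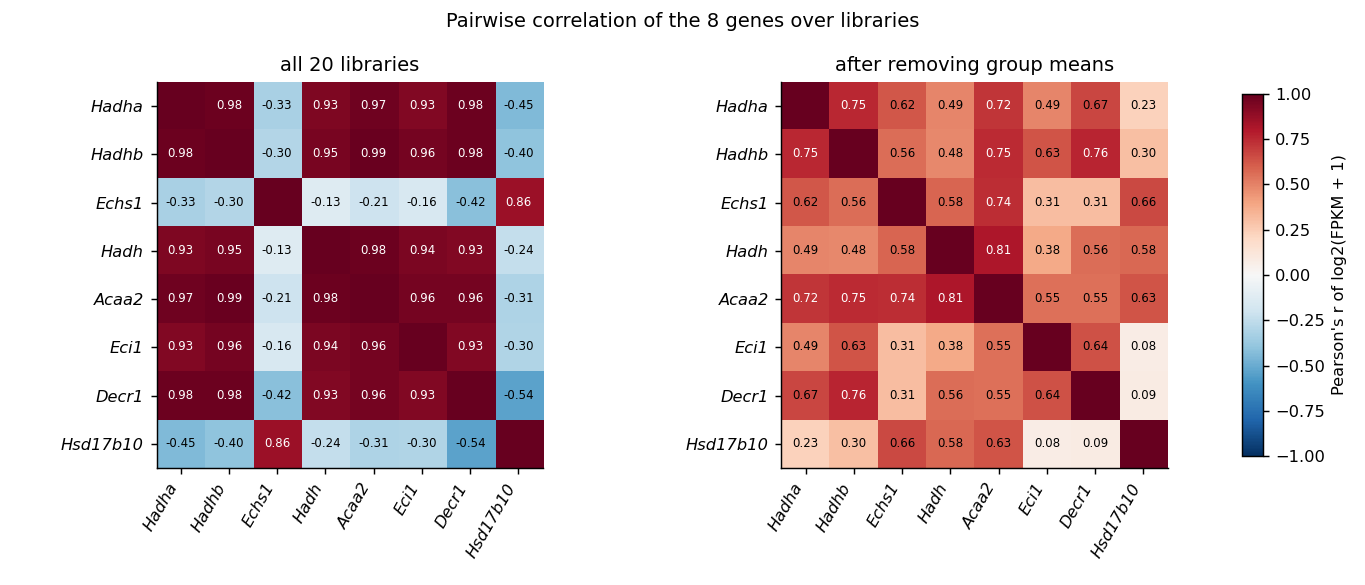
Pearson's r of log2(FPKM + 1) for each pair of the 8 genes (both axes) over the 20 libraries, with the groups as they are (left) and after each group's mean was removed (right), on a colour scale from -1 to 1. On the left Echs1 and Hsd17b10 stand apart from the other 6, and on the right all pairs are above 0.

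The non-member genes whose profile was most like the mean of the 8, by Pearson's r over the 20 libraries over 11132 genes averaging 1 or more in log2(FPKM + 1), began with Acadm (r = 0.97), the medium-chain acyl-CoA dehydrogenase, and Ech1 (r = 0.97), a dienoyl-CoA isomerase of mitochondria and peroxisomes. They were followed by Apbb1 (0.96), Psap (0.95), the precursor of the lysosomal saposins, Fbp2 (0.94), the muscle fructose bisphosphatase, Lrrc39 (0.94), Acat1 (0.94), the mitochondrial acetoacetyl-CoA thiolase, and Fabp3 (0.92), which binds fatty acids in heart muscle. Within groups Ech1 (r = 0.90) and Acadm (0.89) kept their likeness, and Lrrc39 (0.36) and Fabp3 (0.39) less so. Mean FPKM of Ech1 was 979.5 in chow-fed WT, 682 in chow-fed iKO, 1237.5 in HFD-fed WT and 1059.7 in HFD-fed iKO.

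Upstream of these steps, 4 of the 7 genes of the carnitine shuttle, which activates fatty acids and carries them into mitochondria, fell in iKO on chow (median -0.28), led by the carrier Slc25a20 (log2 fold change -0.43), Cpt2 (-0.41), the inner-membrane transferase, and Cpt1b (-0.28), the malonyl-CoA-sensitive transferase of muscle. None of them was called between genotypes on HFD (median -0.026; by limma 2 had an unadjusted p under 0.05), 2 rose with HFD in WT (4 under median-of-ratios scaling) and all 7 rose in iKO (median 0.44). Of the 8 genes of the first step, the acyl-CoA dehydrogenases and the flavoproteins that take up their electrons, 4 fell in iKO on chow (median -0.20), among them Etfdh (log2 fold change -0.34), Acadl (-0.22) and Acadvl (-0.30). None of these 8 was called between genotypes on HFD (median -0.099, by limma 4 had an unadjusted p under 0.05). With HFD 3 of these 8 rose in WT and 5 in iKO (medians 0.12 and 0.20), and none fell. The lists were chosen with results of these data known, and they are given beside the 8 genes as a description.

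**Figure D5:**
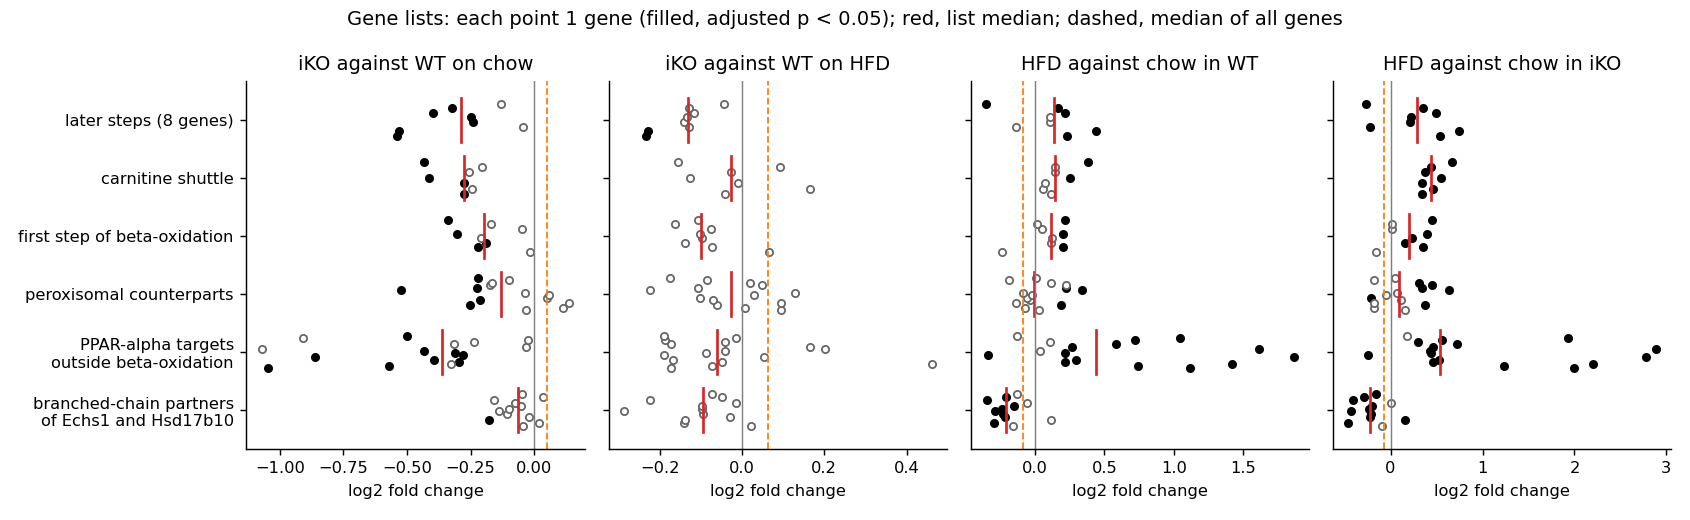
Log2 fold changes (horizontal axis, scaled per panel) of the tested genes of 6 lists (vertical axis) in the 4 pairwise comparisons, 1 point per gene, filled where the adjusted p is under 0.05, with the list median in red and the median of all genes dashed. The branched-chain partners lie mostly to the left of 0 for HFD against chow, and the PPAR-alpha targets mostly to the right.

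Of 14 tested genes of the peroxisomal counterparts, which shorten very long chains outside mitochondria, 5 fell in iKO on chow (median -0.13; 3 without RT4 and RT7 together). The first 3 by p were Ech1 (log2 fold change -0.52), Eci2 (-0.23), an isomerase of both organelles, and Abcd3 (-0.25), a peroxisomal importer. None of the 14 was called between genotypes on HFD (median -0.028, by limma 3 had an unadjusted p under 0.05). With HFD 3 of the 14 rose in WT, and 5 rose and 1 fell in iKO. Of 16 tested PPAR-alpha targets outside beta-oxidation, genes that this fatty acid-sensing receptor activates, 9 fell in iKO on chow (median -0.36), among them Fabp3 (log2 fold change -0.40) and the thioesterases Acot1 (-1.05) and Acot2 (-0.57). None of the 16 was called between genotypes on HFD (median -0.060, by limma 4 had an unadjusted p under 0.05). With HFD 12 of the 16 rose and 1 fell in WT, and 14 rose and 1 fell in iKO, the lipoprotein lipase Lpl being the decrease in both. A list of 18 regulators held PPAR, RXR and ERR receptors, coactivators, corepressors and other transcription factors. None of them passed the limma test between genotypes on either diet (0 on chow and 1 on HFD had an unadjusted p under 0.05). Ppara itself stood at -0.018 on chow (95% interval -0.33 to 0.29), and Pparg alone rose with HFD (log2 fold change 0.43 in WT and 0.38 in iKO). The call of Pparg in iKO was lost without RT1 and RT4 together, without RT4 and RT7 together, and with only the iKO groups in the fit. In WT 2 of the 18 were called, 1 higher and 1 lower, when any one of RT4, RT10, RT14, RT17 and RT18 was left out. Lpl, Ppara and Pparg were chosen for naming after their values were seen.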

How the data were processed

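Poly(A)-selected RNA of left ventricle was sequenced from 20 libraries, and each group has 5 mice, per the labels' protocols. The deposited values are FPKM per gene and library; Bowtie2, RSEM, DESeq2 and the build mm9 are named without roles or versions in the submitters' processing notes. The versioned gene identifiers match GENCODE M21, so gene coordinates are those of GRCm38, and no coordinate comes from the files. The FPKM files were analysed without counts, so edgeR, which the design had named for counts, was not run. From the FPKM, log2(FPKM + 1) was tested with limma 3.58.1 (R 4.3.3) with trend and robust moderation over 4 group means and all 20 libraries. Genes needed 0.5 FPKM in 5 libraries, p-values were Benjamini-Hochberg adjusted over 12775 genes, and the threshold was 0.05. Counts with an unadjusted p under 0.05 are given without the share of all tested genes at that level, which was not counted. Fold changes are on the log2(FPKM + 1) scale, which understates the change of low genes, and intervals are 95% intervals of the fit. Depth is an estimate from the FPKM steps and sets no interval. The code was tested on simulated data.

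The 8 genes and all lists were chosen with earlier results of these data known. Named from each list were up to 3 called genes with the smallest p in iKO against WT on chow, and the 8 genes most like the members by correlation. Alternatives changed the pseudocount (0.1), the filter, the scaling, the moderation, the library weights and the libraries in the fit. Of the marker lists, endothelial, smooth muscle and erythroid genes had no limma call in any comparison (at most 2 of a list with an unadjusted p under 0.05 in one). No lymphocyte gene passed the filter. Of the adipocyte genes only Cidea passed it, and it rose on HFD in iKO (mean 16.6 FPKM on chow and 22.9 on HFD). The untested adipocyte genes went the other way there, all near 0. Their means on chow and HFD were 0.10 and 0.030 FPKM for Adipoq and 0.25 and 0.046 for Cidec. They were 0.050 and 0.024 for Plin1, 0.050 and 0.032 for Retn, and 0.008 and 0 for Lep. These genes were named after their values were seen. Of 2 tested atrial genes 1 fell on HFD in WT.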

Additional observations from a re-analysis of the deposited data

Results flagged for a closer look

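Of 32 sets of 5 libraries (8 genes in 4 groups), 2 held a value far from the other 4 by Dixon's criterion, where the gap to the nearest value exceeded 0.71 of the whole range. Chance marks about 1 in 20 such sets. Hadhb in RT4, an iKO library on chow, stood at 997.9 FPKM, below the other 4 at 1028.8 to 1039.7 FPKM (gap 0.74 of the range). Hsd17b10 in RT1, a WT library on chow, stood at 99.17 FPKM, below the other 4 at 107.2 to 108.1 FPKM (gap 0.9 of the range). RT1 and RT4 are also the libraries with the highest summed atrial markers, and the part of that in these values was not tested.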

How the results depend on the processing

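No paired analysis was possible because each library number occurs once and the groups share none. No log2 fold change of the 8 genes changed sign under any alternative. Under median-of-ratios scaling, which moves the median of all genes, the majority among all called genes turned for HFD in WT (98 higher and 929 lower became 178 and 149), for HFD in iKO (211 and 1068 became 328 and 232) and between genotypes on HFD (13 and 9 became 8 and 17), and the branched-chain partners turned in WT from 8 lower to 1 higher. For iKO against WT on chow 6 of the 8 genes were called under every alternative, including each library left out (6 to 6). On HFD the 2 calls became 0 without the filter on low values, 0 without trend and robust moderation and 0 with only the compared groups in the fit, and 0 to 2 with a library left out. The cause was not tested. Without the filter the fit and the adjustment ran over 25052 genes, against 12775 with it. Quality weights added Hadhb there (adjusted p = 0.025 by limma), while the calls over all genes rose from 22 to 95. For HFD in WT, the 5 calls became 8 with quality weights and 5 to 7 with a library left out. With these weights the calls over all genes rose there from 1027 to 2092. In iKO all 8 were called with any library left out, and 6 under median-of-ratios and upper-quartile scaling. For Echs1 in iKO the adjusted p ranged from 0.00199 to 0.264 over 29 alternatives, and for Hsd17b10 from 0.00197 to 0.177. The interaction gave 0 to 1 calls with a library left out, and for Acaa2 the adjusted p ranged from 0.0462 to 0.899. Of the single-gene values, 1109 kept their side of the threshold, 14 gained a call and 29 lost it. Of the list counts, 978 stayed within 1.5 times, 20 rose and 10 fell beyond it. Precision is limited by 5 mice per group and by FPKM that carry no counting error.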

Other observations

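Echs1 and Hsd17b10 also serve branched-chain amino acid breakdown, Echs1 in the valine pathway and Hsd17b10 in that of isoleucine. Of 12 other genes of this breakdown, 8 fell and none rose with HFD in WT (median -0.21, against -0.084 for all genes), and 9 fell and 1 rose in iKO (median -0.22, against -0.072). Most of these calls depend on the scaling: under median-of-ratios scaling 1 rose and 0 fell in WT, and 4 fell and 1 rose in iKO. Acat1, the thiolase that ends the isoleucine pathway and also handles ketone bodies, had a log2 fold change of 0.15 with HFD in iKO (limma adjusted p = 0.00967) and fell by 0.18 in iKO on chow (limma adjusted p = 0.0106). The chow call of Acat1, the only one of the 12 there, was lost without RT1 and RT4 together, and without RT4 and RT7 together.

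Hsd17b10 also works in mitochondrial RNase P. Of its partners in transfer RNA processing, Trmt10c, the methyltransferase subunit, had log2 fold changes of -0.16 with HFD in WT and -0.14 in iKO (limma adjusted p = 0.0672 and 0.0937). Elac2, which cuts the other end of transfer RNAs, had -0.081 and -0.10 (limma adjusted p = 0.467 and 0.377). None of the 3 listed partners passed the limma test in any comparison, with 2 at an unadjusted p under 0.05 for HFD in WT and 1 in iKO. Trmt10c and Elac2 were chosen for naming after their values were seen.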
